A study of Saccharomyces cerevisiae with 6 samples.

Results

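The loss of the corepressor subunit Cyc8 in glucose medium was followed across all reading frames of Saccharomyces cerevisiae, with the cyc8 deletion in glucose set against wild type in glucose. The comparison takes 4 of the 6 libraries of the series, 2 of each genotype, and its members are all reading frames listed in the count tables. Of 6696 listed reading frames 6146 passed the filter on low counts and were tested, and 550 were left out. Wild type is the laboratory strain BY4741, a haploid of mating type a that lacks working HIS3, LEU2, MET17 and URA3 genes. The deletion strain is BY4741 with CYC8 replaced by the kanMX4 drug resistance cassette, so the auxotrophies are shared by both groups. Cells of both genotypes were in YPGlc, a rich medium with 2% glucose as its sugar (plus 1% yeast extract and 2% peptone), for 3 h per the labels. Total RNA depleted of ribosomal RNA was sequenced as stranded libraries. The other 2 libraries, 1 of each genotype in mannose medium, enter the fit but not the comparison. With 1 library each they add nothing to the estimate of the spread, but they bear on the filter and the scaling. The deletion is 1 strain. Nothing in the labels tells whether replicates came from separate cultures, and p-values therefore measure only the spread between these libraries, which may be technical.

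Cyc8 and Tup1 form a corepressor complex that does not bind DNA itself. DNA-binding proteins such as Mig1, Rox1, Sko1 and Nrg1 bring it to promoters, where it keeps genes for other carbon sources, stress, low oxygen and other states silent while cells grow on glucose. In yeast the complex is best known for glucose repression and for silencing the genes of the other mating type, and cells that lack Cyc8 clump and grow slowly.

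The libraries held 30702206 to 44084216 counts, so that a count of 0 allows a level of up to 0.0681 to 0.0977 counts per 1000000 (CPM), by counting error alone. Levels are given as CPM after TMM scaling, and each change is a log2 ratio of the deletion to wild type ± its standard error. A reading frame was called, and is said to have risen or fallen, at a Benjamini-Hochberg adjusted p under 0.05 in edgeR's quasi-likelihood F test. Replicates of a genotype differed by a median of 0.0791 on the log2 scale in wild type and 0.106 in the deletion. Mitochondrially encoded frames held 0.557% and 0.627% of all counts in the wild-type libraries against 0.744% and 0.857% in those of the deletion. Of 7 genes that mark a cells 6 fell and 0 rose, and their summed level went from 702 and 715 CPM in wild type to 174 and 179 CPM in the deletion. The 4 markers of the other mating type summed to 19.1 and 19.6 CPM in wild type and 12.3 and 13.6 CPM in the deletion.

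CYC8 (YBR112C, chrII:462870-465770, 1 coding exon, R64 build) stood at 199.7 and 207 CPM in wild type and at 2.17 and 2.92 CPM in the libraries labelled as the deletion. Its log2 fold change was -6.30 ± 0.11 (adjusted p = 2.25e-70). TUP1 (YCR084C), the partner subunit, was at 324 and 326 CPM in wild type and 241 and 216 CPM in the deletion. TUP1 thus fell by 0.51 ± 0.08 on the log2 scale (adjusted p = 4.85e-09), and its groups did not overlap.

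Of the 6146 reading frames tested 4173 were called (67.9%), 1849 of them higher (30.1%) and 2324 lower (37.8%) in the deletion. The excess of falls depends on the processing. With the 4 glucose libraries alone 2036 were higher and 2043 lower, and the median over all reading frames was -0.01. With all 6 libraries, DESeq2 size factors gave 2058 higher and 2066 lower, and upper-quartile factors 1646 higher and 2694 lower. The called changes were unequal in size. At least 2-fold rises were called for 778 reading frames (12.7%) and at least 2-fold falls for 295 (4.8%). At a log2 fold change of 4 or more there were 156 rises and 17 falls, and at 8 or more 20 rises and 0 falls. The median over all reading frames tested was -0.08, with a 5th percentile of -1.05 and a 95th of 2.62. Both deletion libraries lay above both wild-type libraries for 2247 reading frames (36.6%) and below them for 2875 (46.8%). In a bulk culture a change in each cell and a change in the share of cells that express a gene cannot be told apart.

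Reading frames called at least 2-fold higher took 3.16% and 3.31% of the scaled counts in the wild-type libraries and 20.7% and 20.2% in the deletion. Those at least 2-fold lower went from 14% and 13.6% to 4.19% and 4.45%. Most of that drop is in frames of retrotransposons, whose copies share reads, and without them the shares were 3.39% and 3.37% in wild type and 1.38% and 1.37% in the deletion. Among the 4809 reference reading frames outside the topics usually described for this corepressor (hexose transport, flocculation, maltose, seripauperins, hypoxia, general stress, sporulation, mating, respiration, ribosome genes and the like), 475 rose at least 2-fold (9.88%) and 173 fell at least 2-fold (3.6%). The same rise was called for 256 of the 1037 reading frames inside those topics (24.7%). These usual topics hold 256 of the 731 reference reading frames that rose at least 2-fold. The topics were taken as lists of gene names, which miss some genes that belong to them.

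**Figure D1:**
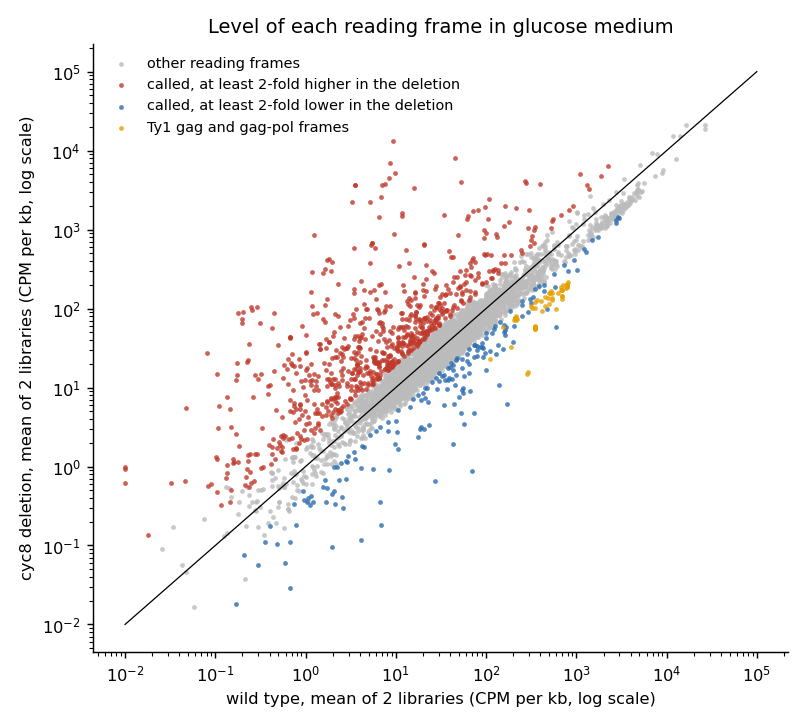
Level of each reference reading frame, with the mean of the 2 wild-type libraries on the horizontal axis and the mean of the 2 deletion libraries on the vertical axis, both in CPM per kilobase of coding length on log scales, and values under 0.01 drawn at 0.01. Called rises of at least 2-fold spread far above the line of equal levels at low wild-type level, while most called falls lie close under it, and the Ty1 frames form a group below the line at high level.

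Genes with little expression in wild type rose most often. In the lowest decile of wild-type level, up to 4.1 CPM per kb, 317 of 585 reading frames rose at least 2-fold (54.2%), which is 43.4% of the 731 reference frames that did so. The share was 20.9% in the next decile, 8.56% in the one above it and 4.62% in the highest decile. At least 2-fold falls were called for 14.6% of the highest decile, 6.5% of the lowest and 0.684% of the decile numbered 4 from the bottom. Outside near-identical families the share in the highest decile was 5.34%, and in the lowest 6.86%. The wild-type level is a term of the fold change itself, so these shares are a description. In all, 29 reference reading frames were under 1 CPM in both wild-type libraries and at 10 CPM or more in both deletion libraries, 13 of them in families of near-identical copies. The reverse held for 2.

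The 15 largest rises are those of genes with a symbol and at least 10 CPM, outside the usual topics and near-identical families. SGA1, AQY1 and SHC1, which act in spores or sporulating cells, are among them because the lists of usual topics do not hold them. VBA5 (YKR105C, chrXI:658716-660464), a membrane transporter tied to amino acid uptake and drug sensitivity, went from 0.506 and 0.356 CPM to 189.5 and 176 CPM, a 427-fold rise (log2 fold change 8.74 ± 0.14, adjusted p = 2.52e-73). Its sister copy VBA3, which shares near-identical sequence so that reads may be split between them, went from 0.213 and 0.334 CPM to 105 and 99.5 CPM. VBA3 met the rule for near-identical copies, which counts the matched share of a frame's own length, and VBA5 did not. ATR2 (YMR279C, chrXIII:824729-826351), a putative boron exporter, rose from 0.559 and 0.445 CPM to 102 and 110.1 CPM (7.73 ± 0.14, adjusted p = 2.4e-68). VBA5, VBA3 and ATR2 were under 1 CPM in both wild-type libraries and clearly expressed in both deletion libraries.

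Regulators were among these rises. HMS1 (YOR032C, chrXV:389771-391075), a helix-loop-helix protein that promotes filamentous growth when overexpressed, rose from 0.293 and 0.311 CPM to 28.6 and 30.3 CPM (6.59 ± 0.17, adjusted p = 7.6e-55). USV1 (YPL230W, chrXVI:115312-116487), a putative zinc finger regulator of genes for non-fermentable carbon sources, rose from 2.45 and 2.58 CPM to 95.5 and 105 CPM (5.31 ± 0.11, adjusted p = 2.43e-64). GID10 (YGR066C), a substrate receptor of a ubiquitin ligase that targets proteins beginning with proline, rose from 0.0798 and 0.311 CPM, which is 3 and 14 counts, to 18.4 and 18.7 CPM (6.47 ± 0.20). The protein kinase FMP48 (YGR052W) went from 3.51 and 4.16 to 180.5 and 173 CPM (5.52 ± 0.10). In each of these both deletion libraries lay far above both wild-type libraries, and replicates of the deletion lay close together.

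Enzymes and channels rose by like amounts. HBN1 (YCL026C-B, chrIII:73405-73986), similar to bacterial nitroreductases, had the highest level among the 15 largest rises, at 544 and 495 CPM in the deletion against 5.24 and 5.85 CPM in wild type (6.54 ± 0.10, adjusted p = 9.33e-74). OYE3 (YPL171C, chrXVI:226169-227371), an NADPH oxidoreductase of the old yellow enzyme family, went from 0.984 and 1.2 to 66.9 and 77.8 CPM (6.03 ± 0.13). SGA1 (YIL099W, chrIX:178004-179653), the glucoamylase that breaks down glycogen in sporulating cells, went from 2.02 and 2.38 to 152 and 135 CPM (6.02 ± 0.11). The spore aquaporin gene AQY1 (YPR192W) went from 0.665 and 0.578 to 37.2 and 41.5 CPM (5.99 ± 0.15), and DAK2 (YFL053W), a dihydroxyacetone kinase, from 0.239 and 0.156 to 10.8 and 10 CPM (5.72 ± 0.21). SHC1, which activates chitin synthase in spores, rose by 5.36, and the proteins of little known function PHM7, MIN7 and TMA10 by 6.14, 5.63 and 5.40 on the log2 scale. The wild-type and deletion libraries did not overlap for any of these 15 genes, which the rule that chose them requires.

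Reading frames without a standard name moved as far. YML083C (chrXIII:99794-101050), an uncharacterised protein, rose from 0.213 and 0.289 CPM to 80.2 and 82.5 CPM (8.30 ± 0.16). YNR071C, an aldose epimerase-like protein beside the hexose transporter gene HXT17, rose from 1.33 and 1.05 to 162 and 175 CPM (7.16 ± 0.12), and YMR206W from 0.346 and 0.445 to 52.6 and 54.7 CPM (7.06 ± 0.15). Of 450 reference frames annotated as uncharacterised proteins 106 rose at least 2-fold (23.6%), against 12.5% of all 5846 reference frames tested. Other annotation classes, chosen after their values were seen, were 28.4% of 169 transporters and permeases, 28.9% of 187 dehydrogenases and reductases, 19.9% of 272 genes annotated with a transcription factor and 16.3% of 129 protein kinases. Of 838 genes annotated with tRNA, rRNA or RNA processing 2.86% rose at least 2-fold. In that class 588 genes fell by any amount, where 37.8% of all reading frames did.

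**Figure D2:**
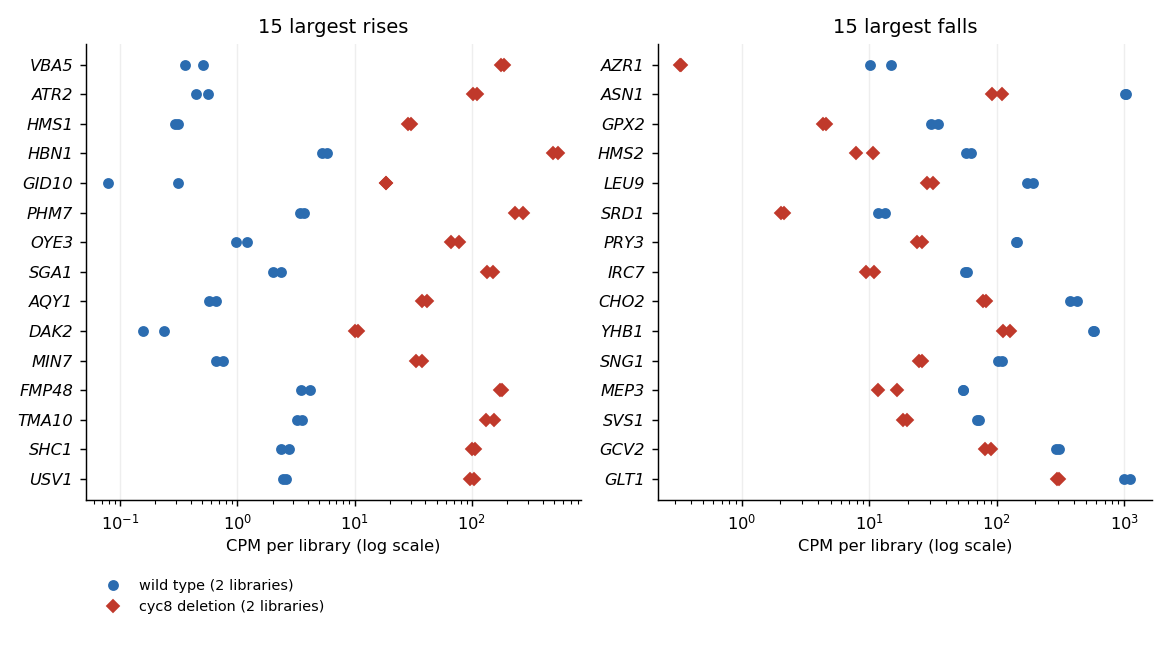
CPM in each library on a log scale for the 15 genes with the largest rises and the 15 with the largest falls outside the usual topics and outside near-identical families. Circles are the 2 wild-type libraries and diamonds the 2 deletion libraries. Replicates lie close together in most genes shown, less so at the lowest wild-type values, in wild type for AZR1 and in the deletion for HMS2 and MEP3. The rises span a wider range than the falls.

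The 15 largest falls by the same selection were smaller than the rises. AZR1 (YGR224W, chrVII:942806-944647), an azole exporter of the plasma membrane, had the largest of these, from 14.9 and 10.1 CPM to 0.336 and 0.33 CPM (-5.21 ± 0.22, adjusted p = 1.98e-39). ASN1 (YPR145W, chrXVI:822620-824338), an asparagine synthetase, was among the most abundant of them, at 1024 and 1007 CPM in wild type and 91.9 and 109 CPM in the deletion (-3.34 ± 0.09, adjusted p = 8.8e-55). GPX2 (YBR244W), a glutathione peroxidase, went from 34.6 and 30.4 to 4.58 and 4.36 CPM (-2.86 ± 0.11). LEU9 (YOR108W, chrXV:523027-524841), an isopropylmalate synthase of leucine synthesis, went from 194 and 173 to 28.3 and 31.5 CPM (-2.61 ± 0.08). HMS2 (YJR147W), similar to heat shock factors, fell by 2.71, but it overlaps another reading frame and its reads may be shared.

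CHO2 (YGR157W, chrVII:802440-805049), which methylates phosphatidylethanolamine on the way to phosphatidylcholine, fell from 429 and 375 CPM to 77.9 and 82 CPM (-2.33 ± 0.08, adjusted p = 7.51e-46). YHB1 (YGR234W), the flavohemoglobin that removes nitric oxide, fell from 576 and 571 to 128 and 112 CPM (-2.26 ± 0.08). PRY3, a cell wall protein, went from 144 and 141 to 25.8 and 23.5 CPM, and IRC7, a cysteine desulfhydrase, from 58 and 56.1 to 10.9 and 9.52 CPM. The other large falls were SRD1 (-2.59), SNG1 (-2.08), the ammonium permease gene MEP3 (-1.93), SVS1 (-1.92), the glycine decarboxylase subunit gene GCV2 (-1.81) and the glutamate synthase gene GLT1 (-1.80). The genotypes did not overlap for any of these genes, again by the rule that chose them.

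Some genes with a high wild-type level changed at least 2-fold too. By level per kilobase the highest that rose were OYE2 (411 and 419 to 1328 and 1286 CPM), ERG25 (306 and 327 to 953 and 891 CPM), GDH1 (746 and 691 to 1334 and 1561 CPM), PIL1 (542 and 559.5 to 1393 and 1224 CPM) and NCW1 (159 and 186 to 381 and 408 CPM). In that order they encode an oxidoreductase, a sterol C-4 methyl oxidase, a glutamate dehydrogenase, the core protein of eisosomes and a cell wall protein. The highest that fell were MRH1 (968 and 968 to 311 and 287 CPM), ILV5 (1576 and 1454 to 613 and 636 CPM), MMF1 (337 and 366 to 140.3 and 123 CPM), EFB1 (1745 and 1660.1 to 782 and 723 CPM) and TEF4 (1869 and 1849.9 to 961 and 885 CPM). MRH1 is a membrane protein, ILV5 and MMF1 act in branched-chain amino acid synthesis, and EFB1 and TEF4 are subunits of a translation elongation factor.

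The reading frames of retrotransposons formed a group of falls. Ty elements copy themselves through RNA, and each holds a gag frame for the particle coat and a longer gag-pol frame for the enzymes, which starts at the same place. Of 89 gag and gag-pol frames tested 84 fell, 63 of them at least 2-fold (70.8%, against the 4.8% of all reading frames), with a median of -1.67. The Ty family, read from the mobile elements of the reference after the values were seen, separated them. All 60 Ty1 frames fell at least 2-fold, with a median of -1.99 and a range of -4.28 to -1.39. All 20 Ty2 frames fell by less than 2-fold, with a median of -0.62 and a range of -0.81 to -0.49, so the ranges of both families did not overlap. Of 4 Ty4 frames 3 rose and 1 was not called, with log2 fold changes of 0.15 to 0.72. The gag frame of Ty3, YGR109W-A, had the largest fall of all 89 frames, -4.37 ± 0.46, at a low level of 1.78 and 1.67 CPM in wild type and 0.122 and 0.0471 CPM in the deletion. The gag-pol frames of Ty3 stood at -0.20, a called fall, and -0.06, which was not called.

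Summed over its 29 gag-pol frames, Ty1 stood at 92350 and 84451 CPM in wild type and 22846 and 24801 CPM in the deletion. For the 10 gag-pol frames of Ty2 the sums were 17518 and 17107 CPM and 10666 and 10735 CPM. These sums count shared reads more than once if the counting did so. Of 80 gag and gag-pol frames with at least 1000 counts in each glucose library 23 had a partner whose counts lay within 1% in all 4 libraries (28.8%), against 8 of 2579 frames outside near-identical families (0.31%). Since 87 of the 89 frames are near-identical to others, a fall cannot be given to a single copy. The largest falls within Ty1, YMR046C with 367 and 388 CPM in wild type and 19.3 and 19.7 CPM in the deletion (-4.28 ± 0.09) and YBL005W-A (-4.20), are such copies too. So is YDR170W-A (-3.70), which lies in no annotated full element.

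**Figure D3:**
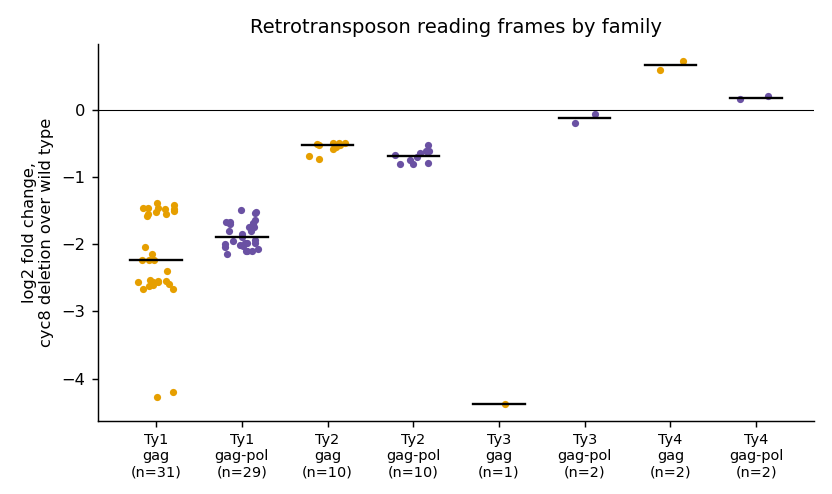
Log2 fold change, deletion over wild type, of each tested gag and gag-pol frame by Ty family, with a bar at the median of each column; the horizontal scatter within a column carries no meaning. Every Ty1 frame lies at or below -1.39, the Ty2 frames lie between -0.81 and -0.49, and the Ty4 frames lie above 0.

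Genes for thiamine, vitamin B6 and sulfate rose in most cases. Of 49 lists of pathways and complexes, thiamine synthesis and uptake had the highest median, 1.64 against -0.08 over all reading frames, with 11 of 16 members higher and 3 lower. THI4, the thiazole synthase, rose from 1.54 and 1.98 CPM to 19.5 and 19.5 CPM (3.45 ± 0.14), and its activator gene THI2 from 2.61 and 2.62 to 15.1 and 15.1 CPM (2.53 ± 0.14). THI5, THI11, THI12 and THI13 are near-identical copies, and with all such families left out the median was 0.96. Of 8 vitamin B6 genes 7 rose and 0 fell, led by SNO1 (1.86, at 0.886 and 1.46 CPM in the deletion) and SNZ3 (1.35, a near-identical copy), and without such families the median of 0.92 was 0.53. PHO3, an acid phosphatase that acts on thiamine phosphates, fell by 0.94.

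In sulfate assimilation and methionine synthesis 17 of 25 genes rose and 6 fell, with a median of 0.84. SUL1, a sulfate permease, rose from 0.399 and 0.378 CPM to 8.77 and 7.68 CPM (4.39 ± 0.20), and MET2, which makes O-acetylhomoserine, from 5.56 and 6.72 to 97.1 and 101 CPM (4.00 ± 0.10). The falls were in later steps and a regulator, with the S-adenosylmethionine synthetase gene SAM2 at -1.24 and MET31 at -1.10. MET17, the enzyme that uses O-acetylhomoserine, is not functional in either strain. Nitrogen genes moved both ways, with 10 of 20 higher and 4 lower, against 30.1% and 37.8% of all reading frames. PUT4, the proline permease, rose from 3.19 and 3.31 CPM to 232 and 263 CPM (6.25 ± 0.11), and PUT1, proline dehydrogenase, by 2.17. GLT1 and MEP3 were the largest falls of that list.

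Branched-chain amino acid and purine synthesis went the other way. Of 12 branched-chain genes 11 fell and 1 rose, with a median of -0.66, and of 23 purine genes 18 fell and 2 rose, with a median of -0.80. LEU9 and ILV5 led the first list, while LEU4, the sister enzyme of LEU9, rose by 0.24. GCV2 and the IMP dehydrogenase gene IMD4 (-1.70) led the second. HIS4, an enzyme of histidine synthesis, went from 499.5 and 491 CPM to 148 and 145 CPM (-1.76 ± 0.08). In aromatic amino acid synthesis 8 of 13 fell and 1 rose, and in serine, glycine and threonine synthesis 8 of 12 fell and 2 rose. In lysine synthesis 4 of 9 fell and 2 rose, near the 37.8% lower and 30.1% higher of all reading frames.

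Many genes of transcription and translation fell by small amounts, where 37.8% of all reading frames were called lower. Of 30 translation factors 28 fell and 2 rose, with a median of -0.53, and of 18 aminoacyl-tRNA synthetases 17 fell and 0 rose, with a median of -0.47. RNA polymerase subunits fell in 25 of 31 cases and rose in 1, the large subunit gene RPO21 of polymerase II (651 and 599 to 809 and 818 CPM, 0.38 ± 0.08). Of 27 nuclear pore genes 24 fell and 0 rose (median -0.32), and of 29 mitochondrial import genes 23 fell and 2 rose (median -0.36). The median of all reading frames was itself below 0, and the number of falls among the pore genes was 16 to 26 across the alternative processings. Mediator (11 of 25 lower, 2 higher) and the SWI/SNF and SAGA coactivators (15 of 24 lower, 1 higher) had medians of -0.15 and -0.21. The median over all reading frames was -0.08, and the share of falls in Mediator was near the 37.8% of all reading frames. Across the same processings the number of falls was 4 to 13 for Mediator and 7 to 16 for the coactivators.

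In ergosterol synthesis 10 of 24 genes rose and 9 fell, near the shares of all reading frames (30.1% higher and 37.8% lower), but 6 of them rose at least 2-fold and 0 fell as far. ERG25 (1.54 ± 0.08) and ERG11 (513 and 506 to 1313 and 1321 CPM, 1.37 ± 0.08), both of which use oxygen, led the rises, and HMG1 (-0.84) and ERG2 (-0.76) the falls. The median of that list, -0.07, changed sign when deletion replicate 1 was left out. Fatty acid synthesis had 9 of 14 genes lower and 2 higher. FAS2 fell from 2587 and 2350.3 CPM to 879 and 1018 CPM (-1.38 ± 0.09) and FAS1 by 1.05, while the acyl-CoA synthetase genes FAA1 (1.88) and FAA2 (1.45) rose. FAA2 and the heme gene HEM14 overlap other reading frames, so their reads may be shared. In sphingolipid metabolism RSB1, a long-chain base exporter, went from 4.55 and 4.85 to 57.3 and 62.9 CPM (3.68 ± 0.10), and the ceramidase gene YPC1 rose by 2.85.

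Oxidative stress genes rose more often than they fell. Of 33 genes for oxidative stress and thioredoxin 20 rose and 7 fell, with a median of 0.44. The cytosolic catalase gene CTT1 went from 9.37 and 10 to 281 and 300.3 CPM (4.90 ± 0.10). In the cyclic AMP and protein kinase A pathway 16 of 22 genes rose and 2 fell, most by less than 2-fold. MSN4, a stress activator kept in check by this kinase, was the largest, from 25.3 and 25 CPM to 239 and 228 CPM (3.22 ± 0.08), followed by GIS1 (2.05). In the target of rapamycin pathway 12 of 19 were not called, 6 rose, near the 30.1% of all reading frames, and 1 fell, with YPK2 (1.67) the largest rise. Of 29 exporters 13 rose and 11 fell, the falls near the 37.8% of all reading frames. The exporters ranged from AZR1 and FLR1 (-1.30) at the low end to VBA3 and VBA5 at the high end. Of 12 carriers of small acids, glycerol and water 9 rose and 1 fell, led by STL1 (6.17) and AQY1.

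Some members moved much further than the median of their list. PEX18, a peroxisomal import factor, rose from 0.319 and 0.334 to 9.17 and 8.57 CPM (4.74 ± 0.22), while 10 of the 26 peroxisome genes fell, near the 37.8% of all reading frames, and 3 rose. FDH1, formate dehydrogenase, rose from 1.12 and 1.16 to 17.7 and 20.1 CPM (4.06 ± 0.14). EDC2, an activator of mRNA decapping, rose by 1.88 where 14 of 24 decay genes fell and 2 rose. In heme synthesis HEM13 (2.55) and HEM14 (1.33) rose, both of which need oxygen, and 5 of 9 genes fell. Of 22 cyclins and inhibitors 9 fell, near the 37.8% of all reading frames, and 3 rose. The rises were SRL3 (1.60), PCL5 (1.31) and CLN3 (1.11), and the largest falls PCL9 (-1.50) and CLB6 (-1.18). The actin cytoskeleton had the most uncalled members, 18 of 28.

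**Figure D4:**
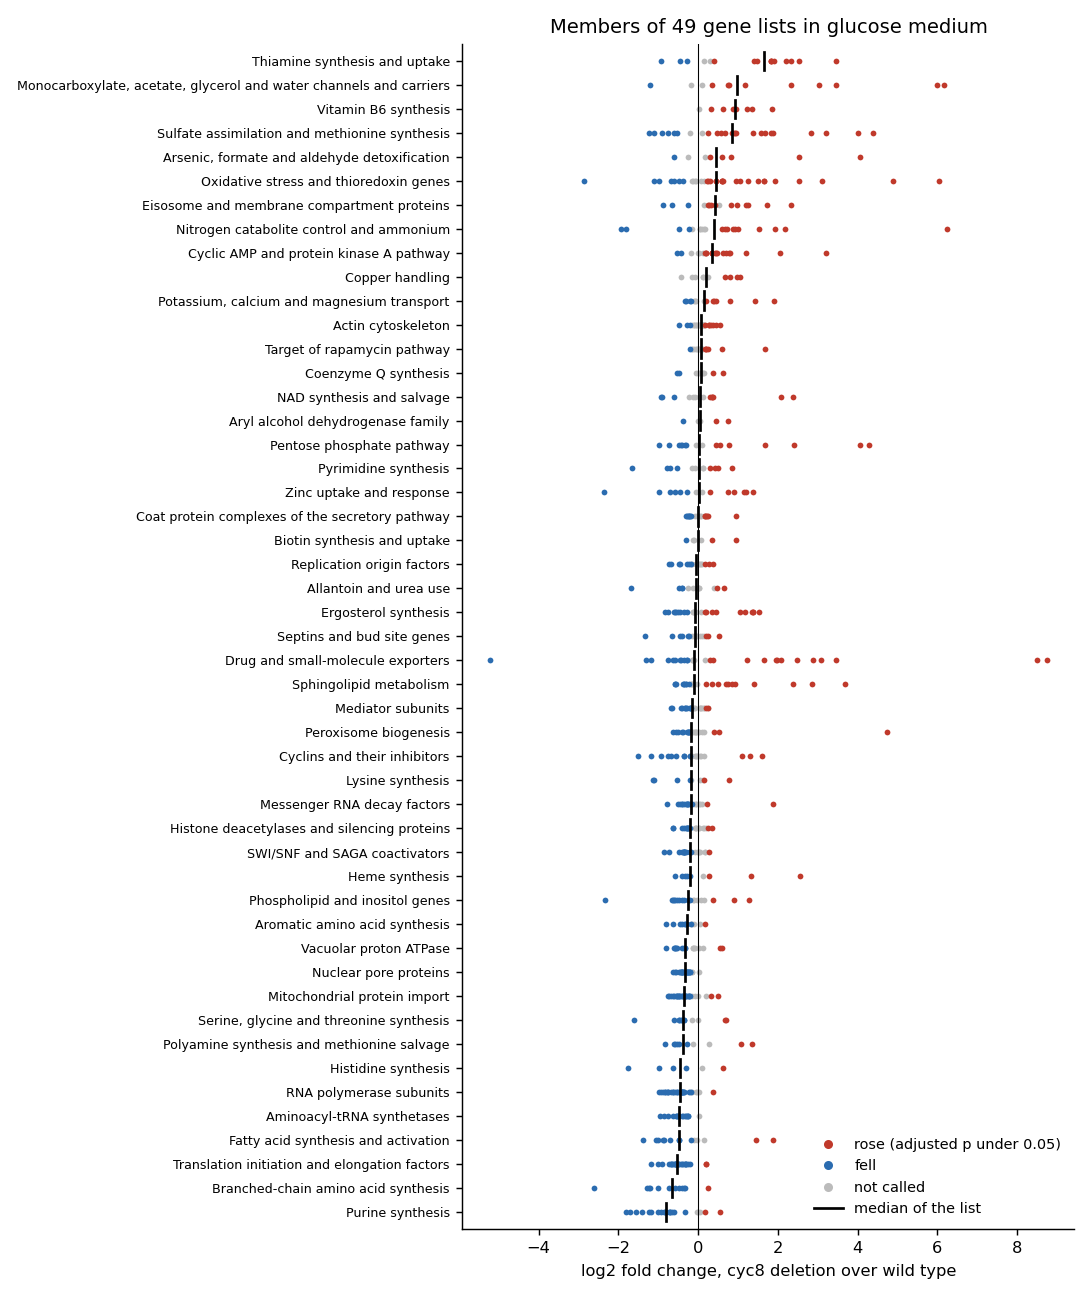
Log2 fold change, deletion over wild type, of each tested member of 49 gene lists, ordered by the median of the list (black bar). Coloured points passed the test and grey points did not. Thiamine genes lie highest and purine and branched-chain amino acid genes lowest, and many lists hold single members far from their median.

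Some duplicate genes moved apart. Of 39 pairs of paralogs 10 differed by at least 2 on the log2 scale between their 2 fold changes, and 10 pairs had calls in opposite directions, in data where 30.1% of all reading frames were called higher and 37.8% lower. Within a pair levels are given per kilobase. OYE2 was at 345 CPM per kb in wild type and 1086 in the deletion, and OYE3 at 0.908 and 60.1. In the pentose phosphate pathway the common form TKL1 fell (-0.47) where TKL2 rose (4.29), SOL3 fell (-0.99) where SOL4 rose (4.07), and TAL1 was not called (-0.04) where NQM1 rose (2.40). PGM1, a minor phosphoglucomutase, fell from 60.8 to 26.8 CPM per kb, while PGM2 rose from 16.5 to 159, which reversed their order. MSN2 rose by 0.47 beside 3.22 for MSN4, and AQY2 was not called (-0.18) beside 5.99 for AQY1. The eisosome pair PIL1 and LSP1 rose alike, by 1.25 and 1.21.

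Rises were more common near chromosome ends. Within 30 kb of an end 131 of 370 reference reading frames rose at least 2-fold (35.4%), with the highest share, 45.4%, between 10 and 20 kb, against 10.9% of those more than 100 kb away. Many genes near ends belong to repeated families. Outside near-identical families the shares were 27.6% within 30 kb and 11.1% beyond 100 kb. The median wild-type level was 9.24 CPM per kb within 30 kb and 24.5 beyond 100 kb. Each of the 32 chromosome ends held at least 1 such gene.

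Neighbours tended to rise together most where they share an upstream region. For a gene that rose at least 2-fold, the neighbouring gene had done so too in 41.6% of divergent arrangements, 26.5% of tandem and 18.4% of convergent ones, against 12.5% of all genes in neighbouring pairs. More than 30 kb from an end the values were 35.5%, 23% and 14.8%. Examples of divergent pairs, chosen after their values were seen, are XBP1 (4.35) with SGA1 (6.02), 753 bases apart, and YOL085C (2.49) with PHM7 (6.14), 341 bases apart, where YOL085C reached only 0.489 and 0.495 CPM in the deletion. Of 41 runs of at least 3 neighbours that all rose at least 2-fold, the longest held 8 genes on chromosome IX, from GAT4 to FLO11 (chrIX:380019-393675). From GAT4 on, their log2 fold changes were 4.76 for GAT4, 2.87 for VLD1, 1.37 for RPR2, 1.83 for YIR016W, 2.84 for MET28, 1.02 for YAP5, 2.35 for YIR018C-A and 4.02 for FLO11. YIR018C-A was at 0.183 and 0.212 CPM in the deletion and 0.0798 and 0 CPM in wild type, and it lost its call when wild-type replicate 2 or either deletion replicate was left out, or in DESeq2. The next run held 6 genes on chromosome VIII, from CRG1 (1.73) to YHR213W-A (6.39, at 1.16 and 1.41 CPM in the deletion), and the third 5 genes of the maltose cluster and a seripauperin on chromosome VII.

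The promoters of the genes that rose held some motifs more often than promoters in general. CCCCT is the stress response element bound by Msn2 and Msn4, and Nrg1 binds like sites. It was in 34.2% of 5827 promoters, taken as the 500 bases before the start codon and read on both strands. It was in 408 of the 731 promoters of genes that rose at least 2-fold (55.8%) and in 30.8% of those that fell at least 2-fold once near-identical copies were left out. Put the other way, 20.5% of genes with the motif rose at least 2-fold and 8.43% of those without it. CCCCGC, a core of the Mig1 site, was in 5.82% of all promoters and 14.4% of those that rose, and its variant CCCCAC in 8.56% and 16.4%. These 3 motifs cannot match the same bases in full but may overlap in part. The Rox1 core ATTGTT (49% and 51.2%), the Yap site TTACTAA (11.8% and 10.9%) and the CRE core TGACGT (13.4% and 15.2%) were about as common among promoters that rose as among all. The TATA box TATAAA was in 60.5% of all promoters and 67.3% of those that rose, and the Ume6 core GGCGGC in 9.51% and 14.2%.

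The promoters of SGA1, USV1 and PHM7 are shown because they are rises outside the usual topics and hold CCCCT. That motif was in 55.8% of the promoters that rose. OYE3 is shown because it rose as far with no CCCCT in the window shown. The windows are chrIX:177654-177903 on the + strand, chrXVI:114962-115211 on the + strand, chrXV:162006-162255 on the + strand and chrXVI:227472-227721 on the - strand, from RefSeq's R64 genome, the sacCer3 build. Each runs 5′ to 3′ from 350 to 101 bases before the start codon. Capitals mark CCCCT or its reverse complement in the first 3, and in OYE3 the Yap site TTACTAA or its reverse complement.
SGA1: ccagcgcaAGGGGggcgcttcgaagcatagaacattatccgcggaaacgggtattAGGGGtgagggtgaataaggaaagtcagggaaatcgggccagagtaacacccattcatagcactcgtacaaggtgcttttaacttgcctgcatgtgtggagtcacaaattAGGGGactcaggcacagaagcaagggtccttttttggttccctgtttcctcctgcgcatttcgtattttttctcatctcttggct
USV1: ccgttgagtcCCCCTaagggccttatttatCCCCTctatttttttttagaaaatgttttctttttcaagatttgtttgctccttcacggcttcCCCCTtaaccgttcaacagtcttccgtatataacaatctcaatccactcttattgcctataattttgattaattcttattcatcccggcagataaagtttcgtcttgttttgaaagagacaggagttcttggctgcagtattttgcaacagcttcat
PHM7: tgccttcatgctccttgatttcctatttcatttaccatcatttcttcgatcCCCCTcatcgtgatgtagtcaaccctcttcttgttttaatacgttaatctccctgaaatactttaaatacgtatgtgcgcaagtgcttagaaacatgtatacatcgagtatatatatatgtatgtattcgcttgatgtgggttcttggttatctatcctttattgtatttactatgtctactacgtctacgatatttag
OYE3: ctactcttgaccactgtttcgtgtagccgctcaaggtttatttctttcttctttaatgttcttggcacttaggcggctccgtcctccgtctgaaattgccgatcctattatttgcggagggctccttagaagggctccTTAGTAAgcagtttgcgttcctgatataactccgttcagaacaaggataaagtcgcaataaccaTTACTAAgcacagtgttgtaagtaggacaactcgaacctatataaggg
SGA1 has 3 matches in this window and 5 in the full 500 bases, USV1 has 3 and 4, PHM7 has 1 and 1, and OYE3 has 2 Yap sites in both. A match describes the letters only, and binding was not measured.

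TGACTC is the core bound by the amino acid regulator Gcn4. Among promoters of genes that fell at least 2-fold it was in 17.9% of 156 outside near-identical copies and 12.6% of 223 with them. It was in 12.6% of all promoters and 11.4% of those that rose. TGAAACA, the pheromone response element bound by Ste12, was in 17.9% of the same 156, 12% of all and 8.62% of those that rose. With the copies, most of them Ty frames, it was in 24.2% of 223. ASN1, LEU9 and GCV2 are shown as large falls of amino acid and glycine genes whose promoters hold TGACTC, which is in capitals with its reverse complement. Their windows, of the same extent, are chrXVI:822270-822519, chrXV:522677-522926 and chrXIII:637150-637399, all on the + strand.
ASN1: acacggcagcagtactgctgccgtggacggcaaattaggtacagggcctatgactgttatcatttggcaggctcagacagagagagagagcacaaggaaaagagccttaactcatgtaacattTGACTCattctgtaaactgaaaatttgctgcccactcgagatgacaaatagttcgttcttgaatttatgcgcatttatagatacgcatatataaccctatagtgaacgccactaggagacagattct
LEU9: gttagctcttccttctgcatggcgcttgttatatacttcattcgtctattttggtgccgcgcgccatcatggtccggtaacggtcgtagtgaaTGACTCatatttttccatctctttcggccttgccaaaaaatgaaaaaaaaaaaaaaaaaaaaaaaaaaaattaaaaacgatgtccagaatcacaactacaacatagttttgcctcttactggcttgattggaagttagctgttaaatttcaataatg
GCV2: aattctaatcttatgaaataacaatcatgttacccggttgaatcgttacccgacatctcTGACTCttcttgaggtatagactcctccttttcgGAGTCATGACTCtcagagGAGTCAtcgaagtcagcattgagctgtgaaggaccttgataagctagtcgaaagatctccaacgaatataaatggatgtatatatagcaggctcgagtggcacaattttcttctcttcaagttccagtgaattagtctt
ASN1 and LEU9 hold 1 match each and GCV2 holds 4, of which a pair lies back to back.

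**Figure D5:**
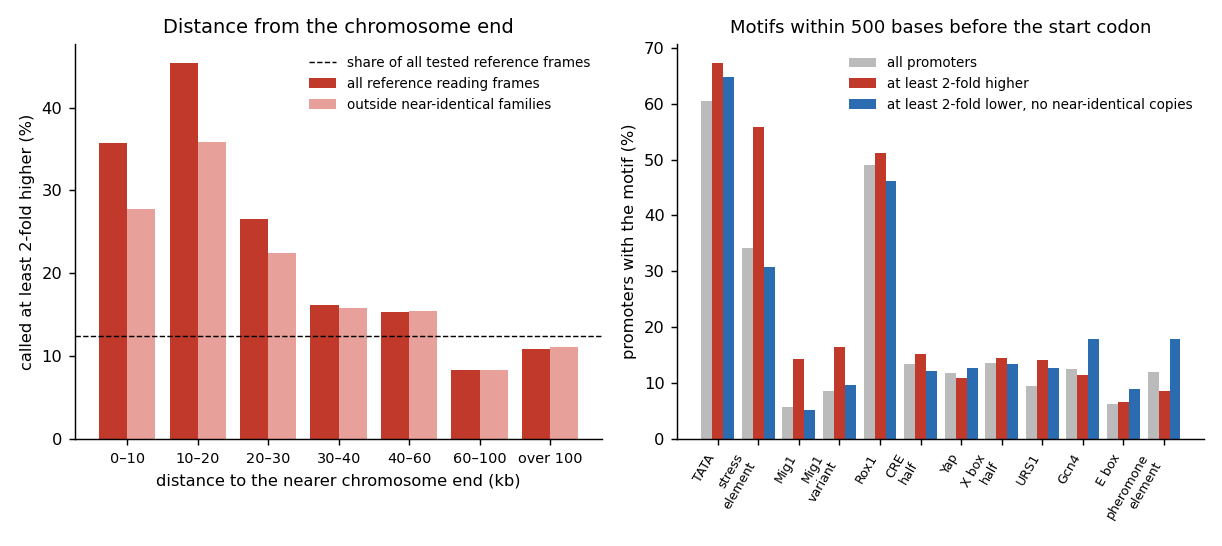
Left, share of reference reading frames called at least 2-fold higher in the deletion by distance to the nearer chromosome end, for all frames and for those outside near-identical families, with a dashed line at 12.5%, the share of all. Right, share of promoters that hold each of 12 motifs, for all promoters, those of genes that rose at least 2-fold and those of genes that fell at least 2-fold outside near-identical copies; the stress element and both Mig1 cores are more common among the rises.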

How the data were processed

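Stranded libraries of total RNA depleted of ribosomal RNA were made from each sample, per the labels' protocols. Raw counts per reading frame were deposited by the authors, and the submitters' processing notes name TopHat2 2.0.9, Bowtie2 2.3.4.2 and CASAVA 1.8, and as build sacCer3. Not given in the sources used here are the counter, its annotation, its strand setting and its treatment of reads that match several places, so values of copies and of overlapping frames are uncertain.

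Counts were analysed with edgeR 4.0.16 in R 4.3.3. Low counts were removed with filterByExpr, libraries were scaled by TMM, and a quasi-likelihood model with 1 mean per genotype and medium was fitted to all 6 libraries (common biological coefficient of variation 5.545%, 2 residual degrees of freedom, so that the spread is borrowed across genes). P-values were adjusted by Benjamini-Hochberg over 6146 reading frames and called under 0.05. Depth was 37954565 and 44084216 counts in wild type and 30702206 and 39266407 in the deletion. On simulated counts for 6146 genes the model recovered 58% of 1.25-fold, 98% of 1.5-fold and 100% of 2-fold and 4-fold changes, with 8 false calls among 186. Changes were planted only in genes above a low-count limit, and every gene was given the common coefficient of variation. Recovery at low counts was therefore not measured, nor recovery with a spread that differs between genes. Of 6696 reading frames 6007 were matched to the RefSeq R64 annotation, which gave coordinates, lengths and promoters. Families of near-identical copies are frames that match another at 95% identity over 80% of their length in BLAST 2.17.0, together with genes taken by name (ribosomal proteins and the TDH, FLO, HXT, PAU, MPH, MAL, ENA, IMA and COS families).

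The named genes are CYC8 and TUP1, then called genes with a symbol, at least 10 CPM in the higher genotype and no overlap between genotypes: the 15 largest rises and falls and the 5 of highest wild-type level per kilobase in each direction, outside the usual topics and copies. The 3 largest changes without a symbol, the 2 largest in each direction of each list, pairs of paralogs that differ by 2 or more and the 3 longest runs of neighbours were added. The members, topics, lists, motifs and pairs were chosen with earlier results of these data known. Members named beyond this rule, the Ty families, annotation classes and printed promoters were chosen after their values were seen. Alternatives were other scalings, filters, DESeq2 1.42.0, a 2-fold threshold, a fixed spread, the glucose libraries alone, with and without a replicate block, removal of copies, correction for GC content and length, and leaving out each library.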

Additional observations from a re-analysis of the deposited data

How the results depend on the processing

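Tested against a threshold of 2-fold instead of no change, 832 reading frames were called, 633 higher and 199 lower. With the biological coefficient of variation fixed at 0.2 the count was 1491, 953 higher and 538 lower, so most small changes rest on the low spread between libraries. Leaving out each library in turn gave 3538 to 4035 calls, 1592 to 2044 of them higher and 1924 to 1991 lower, with 772 to 806 at least 2-fold higher and 240 to 297 at least 2-fold lower. Upper-quartile scaling moved the median of all reading frames from -0.08 to -0.15 and DESeq2 size factors to -0.01, and the share of calls that were higher ranged from 37.9% to 51.7% over the scalings and DESeq2, against 44.3%. Of the 49 lists 15 had a median whose sign changed under an alternative, among them ergosterol, sphingolipid, exporter, zinc, actin and pentose phosphate genes, all near 0. Of the 260 genes tracked by name, none was called in opposite directions by the main fit and an alternative, in 3874 values. A change of sign without both calls was not counted. The call itself changed under some alternative for 134 of them, and for 35 outside the 2-fold threshold and the fixed spread. Of the 131 with at least 2-fold changes, 2 lost the call outside the 2-fold threshold and the fixed spread, YIR018C-A and MCH2. The share of rises within 30 kb of a chromosome end was 29.8% with near-identical families left out of the fit. In the lowest decile of wild-type level the share ranged from 44.3% to 61.2%.

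The replicate numbers of the labels were not taken to pair libraries, since the correlation of deviations between same-numbered libraries was -0.046. The block was fitted to the 4 glucose libraries alone. That fit called 4079 reading frames without the block, 2036 higher and 2043 lower, and 3921 with it, so the excess of falls among the 4173 calls of the fit to 6 libraries is absent from both. Below about 1 CPM, counts are too few for the small changes described here to be detected.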

Other observations

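Further lists held single genes that moved far. Of all reading frames 30.1% were called higher and 37.8% lower, and some of the counts below lie near those shares. In the synthesis and salvage of NAD 6 of 15 genes rose and 3 fell, the rises led by BNA2 (2.39), the first enzyme of synthesis from tryptophan, and the nicotinamidase gene PNC1 (2.07). Of 14 zinc genes 6 rose and 6 fell, between IZH4 (-2.35) and the vacuolar zinc carrier gene COT1 (1.37). Of 10 copper genes 4 rose and 0 fell. In ion transport 7 of 15 rose and 4 fell, led by HAL1 (1.91) and the vacuolar calcium pump gene PMC1 (1.42). Of 15 eisosome and membrane compartment genes 10 rose and 3 fell, with FMP45 (2.34) and MDG1 (1.73) highest and SUR7 (-0.89) lowest. DUR1,2, which encodes urea amidolyase, stood at -1.69 in a list of 12 allantoin and urea genes where 4 fell and 2 rose. FUR1, a uracil salvage enzyme, stood at -1.66 among 12 pyrimidine genes, 4 of them higher and 4 lower. BUD9, a bud site protein, stood at -1.32 where 6 of 18 septin and bud site genes fell and 3 rose.

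Of 18 genes of the vacuolar proton ATPase 10 fell and 2 rose (median -0.32), and of 21 histone deacetylase and silencing genes 10 fell and 2 rose (median -0.19). Replication origin factors had 7 of 19 lower and 3 higher, coat protein genes 7 of 19 lower and 6 higher, and coenzyme Q genes 2 of 10 lower and 2 higher. Of all reading frames 37.8% were lower and 30.1% higher. The shares of falls among origin factors, coat protein genes and coenzyme Q genes were near 37.8% or below it. Polyamine synthesis and methionine salvage had 6 of 10 lower and 2 higher, ADI1 (1.36) and UTR4 (1.07). Phospholipid genes had 11 of 20 lower and 3 higher, biotin genes 1 of 6 lower and 2 higher, and aryl alcohol dehydrogenases 1 of 5 lower and 2 higher. In the list for arsenic, formate and aldehydes, 5 of 8 rose and 1 fell, among them GRE2 (2.53), a methylglyoxal reductase. Pentose phosphate genes divided evenly, 7 higher and 7 lower of 16, and sphingolipid genes had 11 of 25 higher and 9 lower.

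Among 300 tested reading frames that are not in the RefSeq annotation 69 fell at least 2-fold (23%), against 3.87% of reference frames, and 47 rose at least 2-fold (15.7%). Those that fell had a median wild-type level of 0.919 CPM.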
